A study of Gallus gallus with 8 samples.

Results

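The genes described here had less RNA in both libraries of PHF5A knockout and both of SF3B1 knockout than in any control or DLC1 knockout library. They are 100 of the 30862 features in the deposited table, and the data are RNA-seq counts from sorted GFP+ cells of chicken (Gallus gallus) trunk neural crest, labelled as primary cells. The members were chosen by their own counts in all 8 libraries. Features on chromosomes 1 to 15, 17 to 24, 26 and 28 with a span over 1 kb and up to 300 kb were considered, which left 24413. Counts were scaled to CPM, each library's total being its counts outside the mitochondrial chromosome, and 0.5 was added. A control mean of at least 5 was met by 8957 genes, and 6042 of these had a DLC1 mean within 1.5-fold of the control mean. These 6042 are called the window genes below. In 193 of them (3.19%) the highest of the 4 PHF5A and SF3B1 values lay below the lowest of the other 4, and the 100 with the lowest ratio of these 2 values were taken. Since every library entered the choice, the values that set the groups apart are given as a description, with no test.

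All 8 libraries came from cells given Cas9 with a guide RNA. The control group received a scrambled guide (2 libraries, labelled as replicates 1 and 2), and the other 3 groups a guide against DLC1, PHF5A or SF3B1 (2 libraries each, made with 2 different guides). The labels give about 50000 sorted cells per treatment. They do not say whether libraries came from separate embryos or cultures, so a p-value here weighs a difference against the spread of libraries that may be technical, and in the knockouts that spread holds the guide as well. In sorted cells measured in bulk, fewer cells of a type and less RNA per cell cannot be told apart.

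SF3B1 and PHF5A both belong to SF3b, a complex within the U2 snRNP that grips the branch point adenosine when an intron is first recognised. SF3B1 is its large scaffold, and PHF5A is a small subunit that sits against SF3B1 at the pocket for the branch point. DLC1 is best known for its effects on the cytoskeleton and on cell adhesion. Trunk neural crest cells leave the dorsal neural tube and give rise to sensory and sympathetic neurons, Schwann cells and pigment cells. The comparison asks which transcripts were low when either SF3b subunit was targeted and not when DLC1 was.

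The count table lists Ensembl IDs without symbols. A RefSeq table of 25635 chicken genes of assembly GRCg7b was at hand, but it held no Ensembl IDs, so none could be matched. The functions of the members, the level of each targeted gene and the markers of neural crest and of other cell types were therefore not analysed here. Members are given by their rank in the ratio (1 is the lowest) and by position on GRCg6a as deposited. IDs are given for the 2 of lowest ratio and for 3 others that were singled out after their values were seen.

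The counts outside the mitochondrial chromosome numbered 14200279 and 14321398 in the controls, 31135549 and 29249671 in DLC1 knockout, 31617387 and 27240117 in PHF5A knockout, and 17718549 and 15214633 in SF3B1 knockout. Deep and shallow libraries thus stood on both sides of the division that chose the members. A floor of 3 counts corresponded to between 0.0949 and 0.211 CPM. Mitochondrial transcripts took 25.9% and 21.4% of all counts in the controls, 9.65% and 15.7% in DLC1, 8.01% and 19.6% in PHF5A and 9.44% and 18.0% in SF3B1 knockout, where the first value is that of guide 1. This share was lower in all 6 knockout libraries and not in the SF3b knockouts alone. It bears on the choice: with all counts as the total, 94 genes met the rule and 41 of the 100 members were among them.

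The differences were mostly small. Relative to the control mean, the median member stood at 0.730 and 0.696 in the PHF5A libraries and at 0.745 and 0.739 in the SF3B1 libraries, each on the CPM + 0.5 scale. It stood at 0.966 and 0.998 in the DLC1 libraries. On the log2 scale these library medians were -0.45, -0.52, -0.42 and -0.44 for the 4 SF3b libraries and -0.05 and -0.003 for DLC1. Over all window genes they lay between 0.04 and 0.18 in the 6 knockout libraries. The members together took 1.90% and 1.76% of the nuclear counts in the controls and 1.75% and 1.95% in DLC1 knockout, against 1.46% and 1.42% in PHF5A and 1.38% and 1.44% in SF3B1 knockout.

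**Figure D1:**
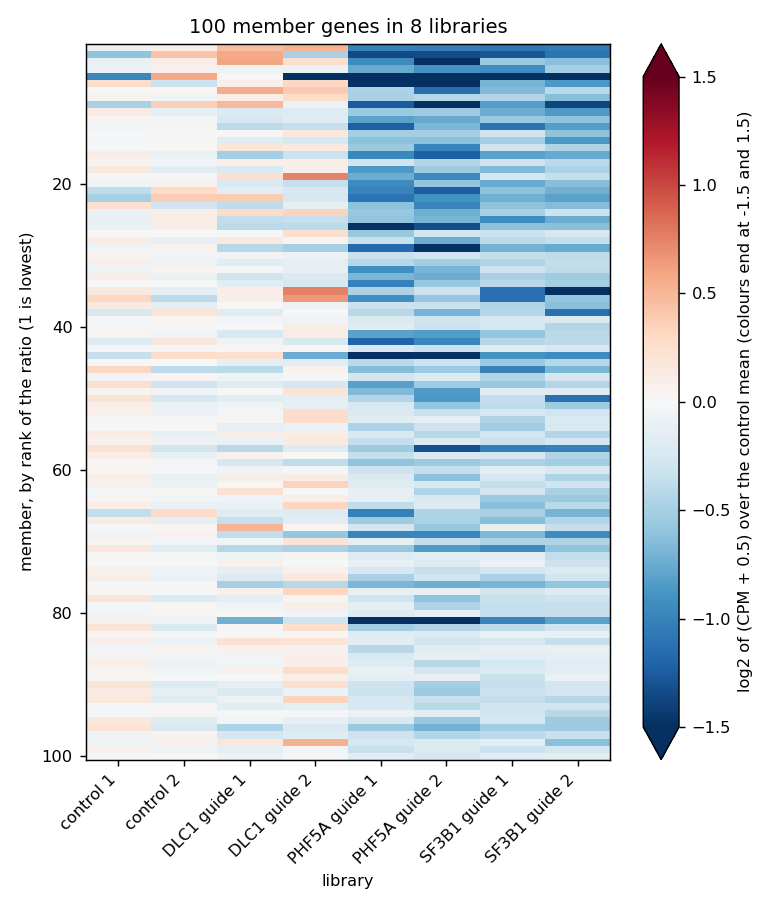
Log2 of CPM + 0.5 over the control mean for the 100 members (rows, by rank) in the 8 libraries (columns); blue is below and red above the control mean. The 4 columns of PHF5A and SF3B1 are blue throughout, which the choice of members fixes, while the DLC1 columns hold both colours, and the deepest blue lies in a small number of rows.

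By group mean, the fold to control ran from 0.0157 to 0.925 in PHF5A knockout, with quartiles of 0.591 and 0.818. In SF3B1 knockout it ran from 0.174 to 0.925, with quartiles of 0.638 and 0.80. At or below 0.5 of control stood 14 members in PHF5A and 6 in SF3B1 knockout, and at or below 0.8 stood 67 and 75. The ratio that chose the members was below 0.8 in 10 of them and below 0.9 in 43. The last member inside the limit, on chromosome 1 (63098565 to 63108225, plus strand), had a ratio of 0.960, from a highest SF3b value of 182 and a lowest other value of 190. The first gene outside it, on chromosome 4 (65118478 to 65129345, minus strand), had a ratio of 0.962, from 99.2 and 103. The limit therefore fell in a continuous run of values.

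Depth limited how far such gaps could be read. The lowest count of a member in any library was 12, and 12 of the 100 members had under 100 counts in at least 1 library. For the 2 libraries that set a member's ratio, exact 95% Poisson intervals of the counts did not overlap in 41 members, 26 of them among the 50 of lowest ratio. In the other 59 these intervals overlapped. The intervals take in no more than counting error. Without molecular identifiers several reads can come from 1 molecule, so the intervals may understate even that error.

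The member ranked 1, ENSGALG00000014976 on chromosome 2 (102635988 to 102655539, plus strand), was set apart most widely. It held 44.0 and 50.6 CPM in the controls and 65.3 and 68.4 CPM in DLC1 knockout. In PHF5A knockout it held 23.1 and 23.1 CPM, and in SF3B1 knockout 22.2 and 22.5 CPM. The 4 SF3b libraries differed by less than 1 CPM among themselves, the counting intervals of PHF5A and SF3B1 overlapped, and DLC1 knockout lay above both controls. Its folds to control were 0.493 in PHF5A, 0.478 in SF3B1 and 1.41 in DLC1 knockout.

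ENSGALG00000038543, ranked 2 on chromosome 7 (20832488 to 21037252, plus strand), has a long span of 204765 bases and few reads. Its level was 2.89 and 6.42 CPM in the controls, 7.13 and 3.18 CPM in DLC1, 1.52 and 1.54 CPM in PHF5A and 1.64 and 1.91 CPM in SF3B1 knockout. Both SF3B1 values rested on 29 counts and the lowest control on 41. Its control and DLC1 libraries were each spread over more than the distance from the lowest of them to the SF3b libraries.

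The next members differed in how DLC1 knockout stood. The member ranked 3, on chromosome 6 (23247091 to 23254580, plus strand), was higher in DLC1 knockout (38.4 and 30.5 CPM) than in the controls (23.2 and 27.2 CPM). It was at 12.8 and 5.07 CPM in PHF5A and 16.9 and 16.2 CPM in SF3B1 knockout, so the PHF5A libraries were the lower pair and differed from each other. The member ranked 4, on chromosome 5 (8397376 to 8422245, plus strand), was nearly level in the controls (118 and 133 CPM) and in DLC1 knockout (119 and 118 CPM). It held 74.4 and 67.4 CPM in PHF5A and 65.6 and 87.8 CPM in SF3B1 knockout, and these 2 groups overlapped.

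ENSGALG00000000302, ranked 5 on chromosome 26 (805741 to 818458, plus strand), was the lowest of all members relative to control. It held 30.9 and 92.3 CPM in the controls, 61.5 and 21.4 CPM in DLC1, 0.506 and 0.441 CPM in PHF5A and 16.2 and 4.47 CPM in SF3B1 knockout. The PHF5A values rest on 16 and 12 counts. Every group but PHF5A was widely spread between its 2 libraries, and the gap between the highest SF3b and the lowest DLC1 library was smaller than the spread within the controls or within DLC1.

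ENSGALG00000031496, ranked 6 on chromosome 13 (11260714 to 11270916, plus strand), held 167.5 and 111 CPM in the controls and 147 and 173 CPM in DLC1 knockout. It was at 48.1 and 25.1 CPM in PHF5A and 85.6 and 76.4 CPM in SF3B1 knockout. Both SF3B1 libraries thus lay between PHF5A and the controls.

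**Figure D2:**
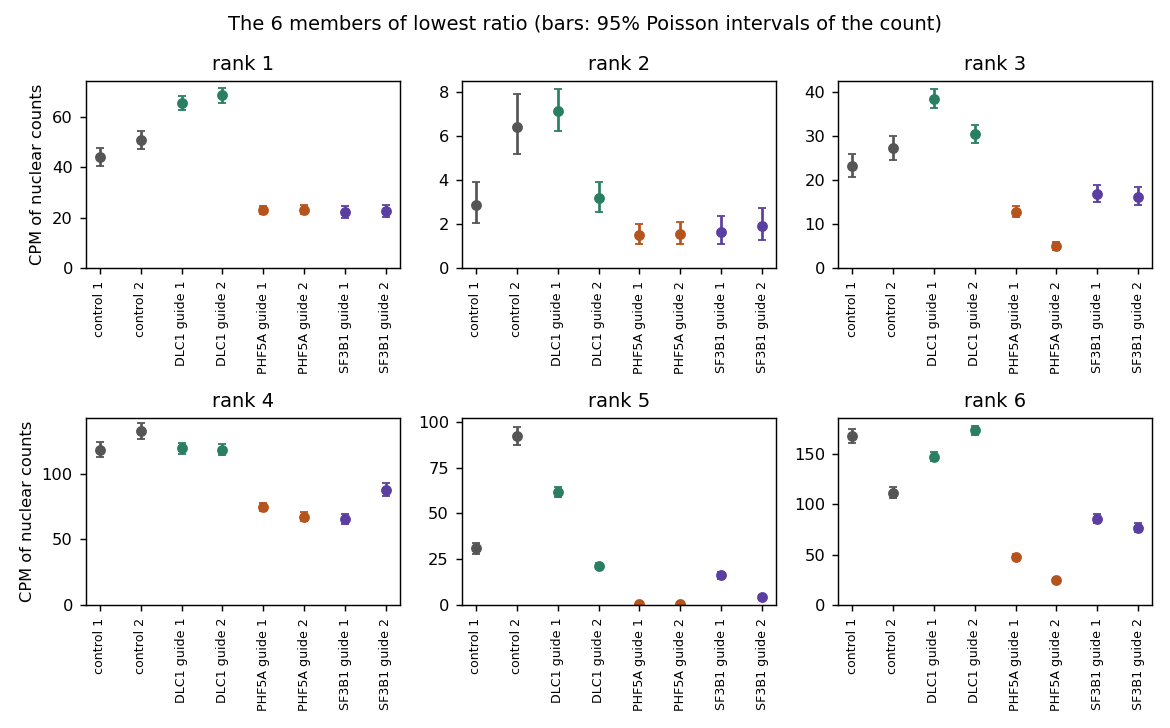
CPM of nuclear counts in each library for the members ranked 1 to 6, with 95% Poisson intervals of the count as bars. Rank 1 has 4 SF3b values close to 23 under all others, and ranks 3, 5 and 6 have PHF5A values (orange) below those of SF3B1 (purple).

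Abundant genes were also among the members. The most abundant, ranked 77 on chromosome 18 (9187852 to 9215420, plus strand), held 5031 and 4839 CPM in the controls and 5171 and 6172 CPM in DLC1 knockout. It held 4564 and 4570 CPM in PHF5A and 4062 and 4329 CPM in SF3B1 knockout. The ratio that chose it was 0.944. The member ranked 30, on chromosome 5 (5765073 to 5805347, plus strand), held 520 and 484 CPM in the controls, 485 and 472 CPM in DLC1, 397 and 410 CPM in PHF5A and 392 and 387 CPM in SF3B1 knockout. Of the window genes with a control mean of 300 CPM or more, 13 of 310 were members (4.19%), against 8 of 736 under 10 CPM (1.09%). Genes that met the rule, taken or not, differed in the same direction, with 21 of 310 (6.77%) and 18 of 736 (2.45%). The part of counting noise in these differences was not tested. The median member had 56.1 CPM in the controls and the median window gene 41.7 CPM. This median was 37.7 CPM for the members ranked 1 to 50 and 128 CPM for those ranked 51 to 100.

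Within the SF3b knockouts the members sorted by target about as often as the window genes did. Both PHF5A libraries lay below both SF3B1 libraries in 28 members (30.6% of window genes), the reverse held in 17 (16.4%), and the pairs overlapped in 55. The lowest of the 4 values belonged to PHF5A guide 2 in 41 members and to PHF5A guide 1, SF3B1 guide 1 and SF3B1 guide 2 in 21, 17 and 21. The rule did not compare the targets with each other, but it asked for low values in both. That limits how far the targets could differ in a member. Few calls among members may follow from the choice, and nothing is concluded from their number. The median absolute log2 difference was 0.12 over the members, 0.20 over the window genes and 0.29 over all genes tested. With this limit the difference was tested. EdgeR's quasi-likelihood test on all 8 libraries called 0 of the 100 members at an adjusted p under 0.05. It called 21 of the 6042 window genes (0.348%) and 174 of all 15619 genes (1.11%). At an unadjusted p under 0.05 stood 11 members (11%), near the 12.2% of window genes, against 17.5% of all genes tested. The median log2 difference, SF3B1 minus PHF5A, was 0.03 over the members, with quartiles of -0.09 and 0.17. It was 0.04 over the window genes and -0.001 over all genes. EdgeR's test gives no standard error (SE), so it was taken as the absolute log2 difference over the square root of the F statistic. For a member's difference it was 0.188 at the median, so differences of that order would not be told from none. Larger ones were not called by edgeR either, such as 0.78 (SE 0.169) for the member ranked 26.

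DESeq2 called 4 members in this comparison, against 4.89% of the genes it gave an adjusted p, and they were singled out after their values were seen. The log2 differences and SEs given for them are those of DESeq2. ENSGALG00000000302 (rank 5) was higher in SF3B1 than in PHF5A knockout by 4.41 on the log2 scale (SE 0.951, DESeq2 adjusted p = 0.000425; edgeR adjusted p = 0.0704). ENSGALG00000031496 (rank 6) was higher by 1.14 (SE 0.292, DESeq2 adjusted p = 0.00483; edgeR adjusted p = 0.0964). The member ranked 26, on chromosome 13 (13762114 to 13764612, minus strand), was higher by 0.78 (SE 0.201, DESeq2 adjusted p = 0.00483; edgeR adjusted p = 0.0612, the smallest of any member). ENSGALG00000027534 (rank 35), on chromosome 13 (13715504 to 13719391, minus strand), was lower in SF3B1 knockout, with a log2 difference of -0.96 (SE 0.275, DESeq2 adjusted p = 0.0162; edgeR adjusted p = 0.104). EdgeR called 1 member with control 1 left out (0.65% of all genes), 1 with control 2 left out (0.662%) and 2 with the guide 1 library of PHF5A left out (0.794%).

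The last 2 of these lie 42.7 kb apart and differed in opposite directions. The member ranked 26 held 126 and 144 CPM in the controls, 103 and 103 CPM in DLC1, 47.8 and 53.5 CPM in PHF5A and 88.1 and 87.2 CPM in SF3B1 knockout. ENSGALG00000027534 held 60.7 and 49.9 CPM in the controls, 59.4 and 93.8 CPM in DLC1, 39.5 and 43.9 CPM in PHF5A and 25.1 and 18.1 CPM in SF3B1 knockout. In the first gene PHF5A knockout was the lowest group and in the second SF3B1 knockout was, with no overlap between the 2 targets in either.

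**Figure D3:**
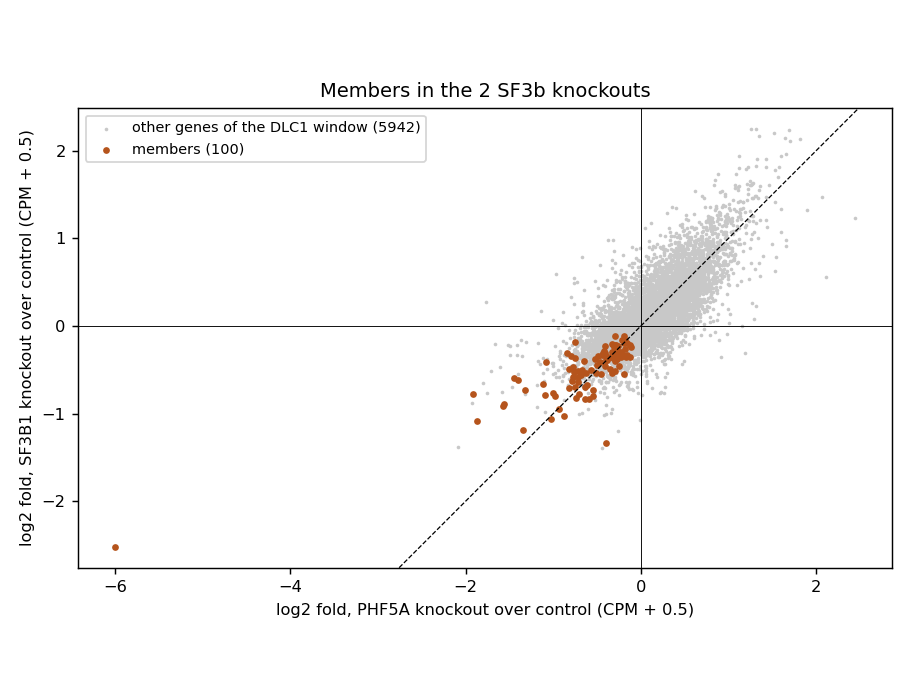
Log2 fold over control in PHF5A knockout (x axis) and SF3B1 knockout (y axis), from group means of CPM + 0.5, for the 100 members (orange) and the other 5942 window genes (grey); the dashed line marks equal folds. Both axes share the same controls and all members lie below 0 on both by their choice; the point at the far left is the member ranked 5, at folds of 0.0157 and 0.174.

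Guide 2 was compared with guide 1 in the same way, with the target as a block, over the 6 knockout libraries. This fits a common difference over the 3 targets, though the labels do not say what guides of the same number share. Differences of opposite direction in different targets can cancel, so few calls do not show that the guides of a target agreed. The choice limits this comparison as well, because both guides of each SF3b target had to be low. EdgeR called 0 of the 100 members and 0 of 15962 genes (0%). An unadjusted p under 0.05 was found for 9 members, 15.1% of window genes and 15.8% of all genes. DESeq2 called 2 members, against 3.26% of the genes it gave an adjusted p. These were ENSGALG00000000302 (guide 2 minus guide 1, log2 difference -1.35, DESeq2 adjusted p = 0.00047) and the member ranked 9, on chromosome 1 (108325123 to 108331089, plus strand; log2 difference -0.90, DESeq2 adjusted p = 0.039). The latter held 10.03 and 2.72 CPM with the 2 PHF5A guides and 13.6 and 9.14 CPM with the SF3B1 guides. Its values were 17.4 and 31.6 CPM in the controls and 34.6 and 23.0 CPM in DLC1 knockout, so guide 2 was lower in each knockout while control 2 was the higher control. The mitochondrial share was higher with guide 2 in all 3 knockouts, and its part in these differences was not tested. Under TMM scaling 74 of the 100 members were higher with guide 2, against 52.8% of window genes and 48.4% of all genes. With libraries scaled by their totals alone, mitochondrial counts included, this turned to 12 members, against 21.9% of all genes. The TMM-scaled count depended on the DLC1 pair: without both DLC1 libraries it was 53 members, against 51.8% of all genes. It was 82 without both PHF5A libraries (47% of all genes) and 71 without both SF3B1 libraries (48.2%).

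In DLC1 knockout the members' distance from control depended on the scaling. The fold to control ran from 0.675 to 1.43 with a median of 0.983, inside limits that the choice set. Both DLC1 libraries lay below both controls in 25 members (21.6% of window genes), with a median fold of 0.837. They lay above both in 15 (37.0% of window genes), with a median of 1.17, and in 60 the groups overlapped. The rule used these libraries, so nothing is read from these shares. Under edgeR's TMM scaling (trimmed mean of M-values), the median log2 fold change of the members was -0.70 in PHF5A, -0.67 in SF3B1 and -0.21 in DLC1 knockout. The medians of the window genes, from which the members were drawn, were -0.13, -0.14 and -0.08. Those of all genes tested were 0.10, 0.04 and 0.10. On the TMM scale the library medians in DLC1 knockout were -0.29 and -0.12, and those of the 4 SF3b libraries ran from -0.76 to -0.65. The choice had set this order on the CPM scale, so nothing is read from it. When libraries were scaled by their totals alone, the median of all genes moved to 0.53, 0.49 and 0.48, and the members stood at -0.27, -0.24 and 0.17. These totals included the mitochondrial counts, while the totals of the CPM scale did not.

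The same kind of choice was made with libraries of one number only and then read in the libraries of the other number, which it had not used. Libraries of number 1 (control 1 and the guide 1 libraries) gave 912 of 5925 genes with both SF3b values below the control and DLC1 values. Of the 100 with the lowest ratio, 43 were also set apart that way in the number 2 libraries, against 703 of all 5925 genes (11.9%). The SF3b mean lay below the control and DLC1 mean in 97 of the 100, and the same share over all 5925 genes is not given here. The median log2 ratio of these means was -0.61 in the libraries that chose the genes and -0.30 in those that had not, where all 5925 genes had a median of 0.03.

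With number 2 choosing, 55 of 100 genes were set apart in the number 1 libraries, against 783 of 5614 genes (13.9%). The SF3b mean was lower in 93 of the 100, again without the share over all genes. The median log2 ratio was -0.60 in the choosing and -0.33 in the other libraries, against 0.10 for all. In both directions the genes chosen were set apart more often than genes at large, by a smaller log2 distance than in the libraries that chose them. The genes at large were not matched to them in level or span. Of the 2 lists, 19 and 32 genes are among the 100 members, so these shares describe the lists and not the members. No p is given, since the genes share the same 4 libraries.

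**Figure D4:**
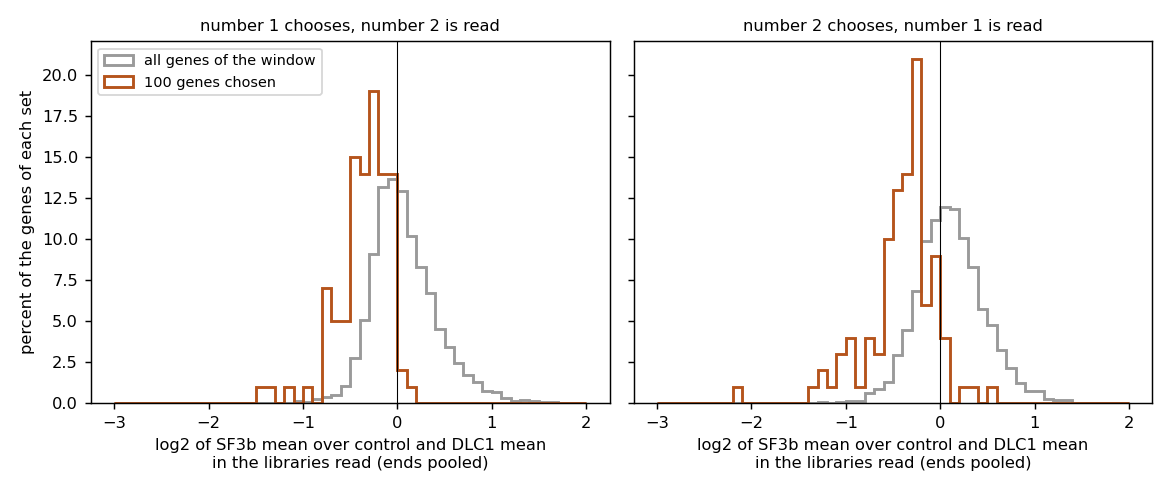
Log2 of the mean of the PHF5A and SF3B1 libraries over the mean of the control and DLC1 libraries, in the libraries that did not choose the genes, for the 100 genes chosen (orange) and all window genes of that choice (grey), in percent of each set. The genes chosen lie mostly below 0, with medians of -0.30 (left) and -0.33 (right), and some lie above it.

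The rule turned over, with all 4 SF3b libraries above the other 4, was met by 659 of the 6042 window genes (10.9%), against the 193 that were lowered. How uneven this was depended on the scaling: with TMM-scaled library sizes 466 genes were lowered and 551 raised. Leaving out a library asks less of each gene and moved the lowered count by over 1.5 times in 4 of 8 settings. It was 321 without control 2, 338 without the guide 1 library of DLC1, 305 without the guide 1 library of PHF5A and 296 without the guide 2 library of SF3B1.

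Members had shorter spans than genes at large. Their median span was 9.45 kb, with quartiles of 4.84 and 18.4 kb, against 15.8 kb over the window genes and 19.6 kb over the 100 genes of the raised counterpart. The share of window genes that were members was 4.00% at spans over 1 to 3 kb (14 of 350), 2.27% over 3 to 10 kb (39 of 1718), 1.49% over 10 to 30 kb (34 of 2288), 0.67% over 30 to 100 kb (9 of 1344) and 1.17% over 100 to 300 kb (4 of 342). The window genes as a whole followed a similar order. Their median fold to control at 1 to 3 kb was 0.907 when DLC1 was targeted, 0.860 when PHF5A was and 0.920 when SF3B1 was. At 30 to 100 kb the medians were 1.18, 1.23 and 1.16 in the same order. The span is the distance from start to end with introns included, so it is not the length of the mRNA, and no level per length was computed from it. As the deposited length is the whole span, reads in introns may be among the counts. Their part in the levels and in the order by span was not tested.

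**Figure D5:**
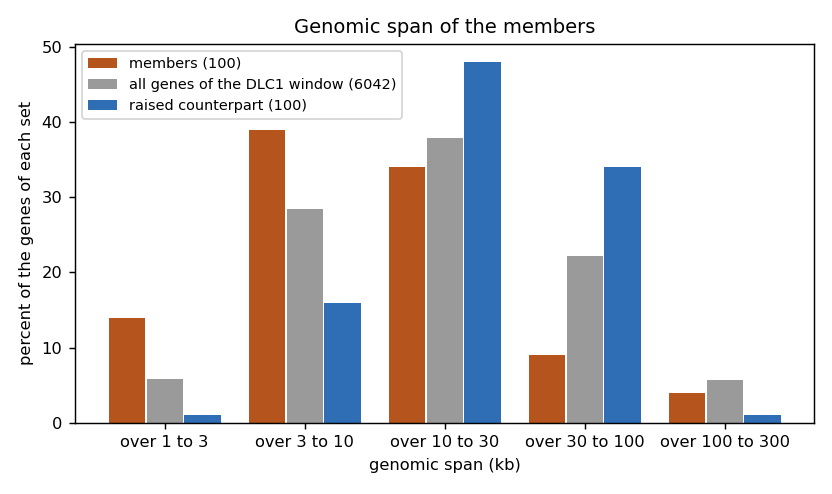
Percent of the 100 members, of all 6042 window genes and of the 100 genes of the raised counterpart in 5 classes of genomic span. Members are more frequent than window genes in the 2 shortest classes (14% and 39% against 5.79% and 28.4%), and the raised counterpart is more frequent at 10 to 100 kb.

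Members were spread over 23 of the 25 chromosomes of the rule, with 11 on chromosome 1, 10 on chromosome 2, 8 on chromosome 8 and none on chromosomes 19 and 22. Relative to the window genes of each chromosome they were most frequent on chromosome 24 (3 of 72), chromosome 9 (7 of 183), chromosome 8 (8 of 225), chromosome 7 (7 of 211) and chromosome 26 (4 of 125). Counts this small do not order the chromosomes. The plus strand held 60 of the 100 members and 50.7% of window genes. Other features overlapped the span of 20 members (5 on the same and 15 on the opposite strand), against 33.5% of window genes. Span, which was shorter in the members, was not matched in this comparison. Because the strand setting of the counting is not given in the sources used here, reads of such overlapping features could not be assigned with certainty.

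Some members lay near each other, most of these with other genes between them. Within 50 kb of another member were 8 of 100, and 221 of the 5942 other window genes (3.72%) were as near to a member. At 250 kb the shares were 15.0% and 11.4%. On chromosome 24 the members ranked 32 (5408281 to 5416176) and 23 (5465675 to 5471723), both on the minus strand, had 0 genes with a control mean of at least 5 starting between them. The first held 48.4 and 52.5 CPM in the controls, 49.5 and 46.4 CPM in DLC1, 26.5 and 31.0 CPM in PHF5A and 40.5 and 38.8 CPM in SF3B1 knockout. The second held 59.7 and 41.4 CPM in the controls, 38.8 and 46.0 CPM in DLC1, 32.7 and 25.3 CPM in PHF5A and 33.0 and 32.1 CPM in SF3B1 knockout. Only the first kept PHF5A apart from SF3B1.

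On chromosome 28 the members ranked 33 (1305822 to 1310089, plus strand) and 27 (1337785 to 1344794, minus strand) were 27.7 kb apart. The 2 genes that start between them were not lowered alike, with folds to control in PHF5A and SF3B1 knockout of 0.708 and 1.11 for one and 1.52 and 1.84 for the other. On chromosome 6 the members ranked 3 and 54 were 53.3 kb apart with 8 genes starting between them, none of which was set apart in the same way.

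The pair on chromosome 26 stood in a stretch where all 5 genes with such a control mean were lower in each knockout by group mean. The member ranked 12 (773859 to 781685, plus strand) held 87.6 and 93.3 CPM in the controls, 68.8 and 71.1 CPM in DLC1, 38.3 and 56.1 CPM in PHF5A and 42.1 and 50.9 CPM in SF3B1 knockout. Then came 3 genes that are not members, with DLC1 means outside the 1.5-fold window. Their folds to control were 0.476, 0.661 and 0.515 with DLC1 targeted, 0.526, 0.409 and 0.370 with PHF5A targeted and 0.580, 0.566 and 0.470 with SF3B1 targeted, in order of position from 785079 to 805367. Only 1 of the 3, from 797345 to 805367, had all 4 SF3b libraries below the other 4, so the rest failed that condition as well. ENSGALG00000000302 ended the stretch, at folds of 0.675, 0.0157 and 0.174. Both members of this pair were also below 0.8 of control in DLC1 knockout.

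Over all members, 317 other genes with a control mean of at least 5 lay within 50 kb. Their median fold to control was 1.05 in PHF5A, 1.11 in SF3B1 and 1.04 in DLC1 knockout, against 1.20, 1.16 and 1.17 for 8707 genes farther away on the same chromosomes. Of the near genes 8 had all 4 SF3b libraries below the other 4 (2.52%), against 94 of the others (1.08%). Span was not matched between the near and the farther genes.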

How the data were processed

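The authors deposited raw gene counts with each gene's position and span. Per the submitters' processing notes, featureCounts 1.5.3 (Subread), STAR 2.7.11b, Trimmomatic 0.39 and FastQC 0.12.1 were used, with build GRCg6a. Per the labels' protocols the kit was Illumina Stranded mRNA Prep. The sources used here give neither annotation release nor strand setting. The span (a column in other units, bases) is the deposited length and is end minus start plus 1 base in 100% of features. All 8 count columns matched a labelled sample. The 2 libraries of a group differed beyond sampling noise (chi-square per degree of freedom 37.4 to 176), so none was a duplicate.

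The members, lists and tests were chosen with earlier results of these data known. The rule for named genes, without gene symbols, took the 2 members of lowest ratio and called members in each tested contrast, of which edgeR gave none. Lists of spliceosome, neural crest and other marker genes needed symbols and were not used.

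CPM used counts outside the mitochondrial chromosome; folds of group means used CPM + 0.5. EdgeR 4.0.16 (R 4.3.3) was fitted to all 8 libraries (filterByExpr, TMM, robust quasi-likelihood F-test), and for the guides to the 6 knockout libraries with target as a block. P-values were adjusted by Benjamini-Hochberg over all genes tested. DESeq2 1.42.0 was an alternative, beside other scalings, no filter, each library left out, a number block and other settings of the rule. Fits that leave out 1 library assume that the lone one of its group varies like the others.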

Additional observations from a re-analysis of the deposited data

Results flagged for a closer look

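In 15 members both DLC1 libraries lay above both controls while all 4 PHF5A and SF3B1 libraries lay below them on the CPM scale that chose the members. Over the window genes, both DLC1 libraries lay above both controls in 37.0%. The direction depends on the scaling: in edgeR's TMM-scaled fit 11 of the 15 were above control in DLC1 knockout and 4 below. Their log2 fold changes there ran from -0.12 to 0.36 (median 0.045). They include the members ranked 1, 3, 7 and 19, with DLC1 folds to control of 1.41, 1.36, 1.40 and 1.43 on the CPM + 0.5 scale. The choice of members fixes the lower side, and the difference was not tested.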

How the results depend on the processing

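Of 123 alternatives computed, 85 were counted as keeping their result, 37 as moving it and 1 as reversing it. Causes were not tested. A kept result need not be unchanged, since moderate changes were counted as kept. Without the guide 1 library of SF3B1, 68 of the 100 members stayed among the 100 of lowest ratio, which counted as kept. Without the guide 2 library of PHF5A, 283 genes met the rule, against 193, and this count was also taken as kept. With all counts as the total, 41 of the 100 members met the rule (94 genes did, against 193). With TMM-scaled library sizes 94 members met it, 61 of them among the 100 of lowest ratio (466 genes met it). With each library left out in turn 94 to 100 members met the rule, which then asks less, 54 to 81 of them among the 100 of lowest ratio, and 229 to 338 genes met it. The median log2 fold change of the members in PHF5A knockout (-0.703) was -0.782 with median-ratio size factors and with DESeq2, -0.271 with library size alone and -0.819 to -0.654 with a library left out. In SF3B1 knockout (-0.672) these were -0.742, -0.742, -0.235 and -0.832 to -0.673. In DLC1 knockout (-0.205) library size alone reversed it to 0.17. Library size included the mitochondrial counts in these fits. The median of SF3B1 minus PHF5A (0.025) ran from -0.047 to 0.093 with a library left out. For that comparison edgeR called 0 members, DESeq2 4, edgeR with no filter on low counts 5 (5% of all genes), and 0 to 2 were called with a library left out. Between guides 0 members were called, against 2 by DESeq2, 1 with no filter (0.191% of all genes) and 4 without both DLC1 libraries (13.5%). The labels do not say what control and guide numbers share, so they were not taken as pairing in the main fit. The guide comparison and the choice by library number did group libraries by them. The correlations of same-numbered libraries' deviations ran from -0.221 (control with DLC1) to 0.281 (PHF5A with SF3B1), and a replicate block called 1 member (584 of 15619 genes, against 174). Leaving mitochondrial features out, chosen after seeing the data, left 0 members called in SF3B1 against PHF5A and was not run for the guides. Depth limits members with few counts, of which 12 had under 100 in some library.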
